A study of Mus musculus with 12 samples.

Results

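Halofuginone (HF) was compared with MAZ1310, which the submitters call its inactive derivative, after 3 h of treatment of mouse T cells, across all genes that the arrays measured. The 6 arrays were chosen by their labels, 3 of cells given 10 nM HF and 3 of cells given 10 nM MAZ1310, out of 12 arrays in the series. The other 6 arrays hold the same 2 treatments at 6 h and enter here only to estimate the spread and for a comparison of the times. The cells were CD4+ CD25- T cells of C57B/6J mice, that is, helper T cells lacking surface IL-2 receptor alpha. All groups were stimulated through CD3 and CD28 with antibodies and then kept with TGFb plus IL-6, cytokines that together steer helper cells towards the Th17 fate. The MAZ1310 arrays are therefore activated cells under the same cytokines, and cells given no compound were not analysed here. Total RNA was taken with Trizol and RNeasy columns and read on 1-colour Affymetrix arrays. The labels give no genotype beyond the strain, no age, and no statement that the biological replicates came from separate animals or cultures, so the p-values reflect only how far these samples spread, which may in part be technical.

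Halofuginone occupies the prolyl-tRNA synthetase site of the bifunctional enzyme EPRS. Uncharged prolyl-tRNA is sensed by the kinase GCN2, which phosphorylates the translation factor eIF2alpha; general translation then slows while the mRNA of the transcription factor ATF4 is translated better. ATF4 with its partners turns on the amino acid response, a set of genes for amino acid synthesis, uptake and tRNA charging. Freshly activated T cells at the same time make and degrade many short-lived mRNAs, among them those of immediate early and cytokine genes.

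Each gene was represented by 1 probe set, giving 18193 genes, and values are the authors' intensities, listed below in the order of replicates 1, 2 and 3. A gene was called when limma's Benjamini-Hochberg adjusted p over all genes was under 0.05; "rose" and "fell" are used only of called genes and mean higher or lower with HF than with MAZ1310. At 3 h, 1726 genes (9.49%) were called, of which 514 (2.83%) rose and 1212 (6.66%) fell. The median log2 fold change of all genes was 0.029. The called genes with at least a 2-fold difference numbered 96 (0.528%), of which 54 (0.297%) rose and 42 (0.231%) fell. For 4147 genes (22.8%) every HF array lay on the same side of every MAZ1310 array, and this held for 1672 of the 1726 called genes. Such separation was a condition for naming the 25 largest changes in each direction, so it is no further evidence for those genes. Normalizing with cyclic loess moved the split to 723 higher and 1085 lower.

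**Figure D1:**
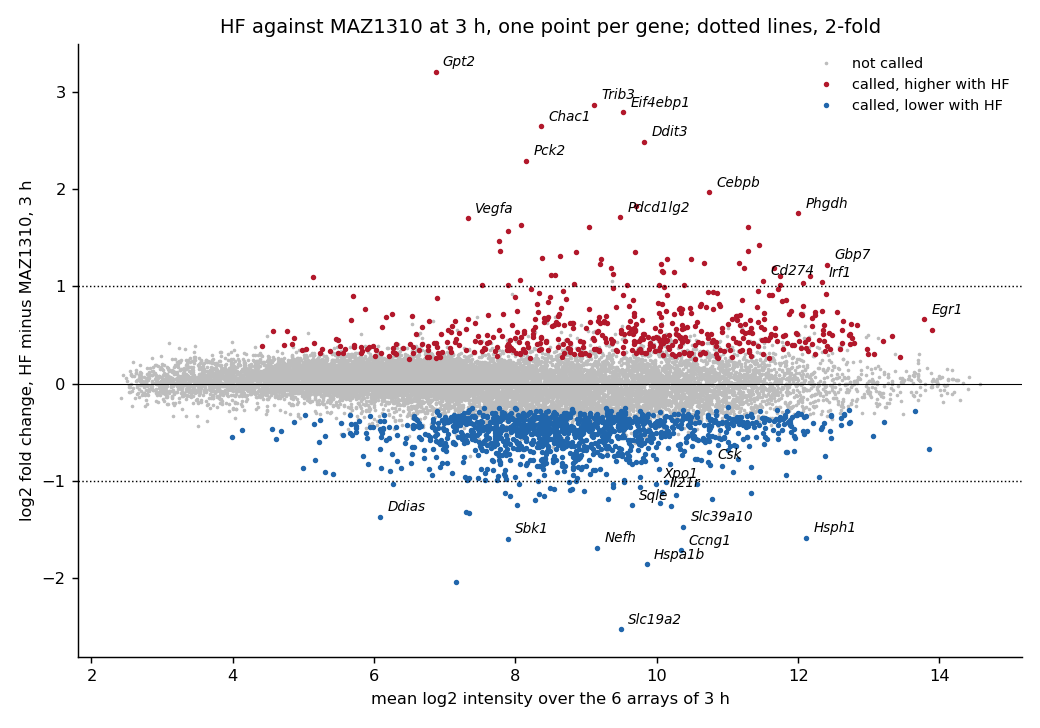
Log2 fold change of HF over MAZ1310 at 3 h (vertical axis, log2 units) against mean log2 intensity (horizontal axis), 1 point per gene for 18193 genes, with called genes coloured by direction. Of the called genes 514 lie above 0 and 1212 below it, and 96 pass the 2-fold lines.

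The labelled cell type was checked against defining markers. All 10 measured T cell markers lay above the array median on all 6 arrays, with a summed intensity of 26064 to 36385 with MAZ1310 and 27120 to 32725 with HF. Of the B cell markers 6 of 9 lay below the array median on all 6 arrays, with sums of 949 to 1040 with MAZ1310 and 988 to 1139 with HF, and of the myeloid markers 9 of 12, with sums of 1159 to 1327 and 1196 to 1357. For cytotoxic or natural killer cells 4 of 9 markers lay below the median throughout and 3 above it. For erythroid cells 4 of 5 lay below and 1 above. For cells presenting on MHC class II 2 of 8 lay below and 4 above. The class II sums were 2203 to 3281 with MAZ1310 and 2197 to 3094 with HF. The 7 regulatory T cell markers were all above the median, and the sums were 10449 to 11557 with MAZ1310 and 11159 to 11801 with HF. The brightest of them was Il2ra, the gene of CD25, at a mean intensity of 5083 over the 6 arrays. The dimmest was Foxp3, at 206, so the sums rest largely on other members. Over the 7 lists limma called 0 of 60 markers at 3 h; before adjustment, 8 of them had a p under 0.05. With the replicate block 7 were called, 4 higher and 3 lower, none of them in the T cell list. Without MAZ1310 replicate 3, 4 were called, among them 2 T cell markers that were lower; in the other fits that left out 1 array, 0 to 2 were called. In bulk RNA, fewer cells of a type and less RNA per cell cannot be told apart.

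Replicates of a group correlated at 0.992 to 0.997, and array medians lay between 97.3 and 102. The log2 signal of the 3' over the 5' actin control probe sets, a measure of RNA integrity, was 0.810, 1.25 and 1.04 with MAZ1310 and 1.00, 1.55 and 1.21 with HF, a difference of 0.221 (exact permutation test, two-sided p = 0.5). That test sets the pairing aside: the HF array was higher than the same-numbered MAZ1310 array in 3 of 3 pairs. The same measure for Gapdh differed by 0.279 (exact permutation test, two-sided p = 0.1, the smallest that 3 against 3 arrays allow), again higher in 3 of 3 pairs. Over both measures and both times HF was higher in 12 of 12 pairwise comparisons. Actin and Gapdh were read on the same arrays, so these 12 are not independent. For each measure and time an exact paired sign-flip test, chosen after seeing the data, gave its smallest possible two-sided p, 0.25. With the replicate number as a block and this actin measure as a covariate, 419 of 18193 genes were called, 185 higher and 234 lower. Of the 1726 genes called in the fit reported, 389 kept their call there. Counts of lists in that fit are to be read against this drop over all genes. Among 135 called genes named here, 97 kept their call in that fit, and the 38 that lost it (limma adjusted p of 0.0517 to 0.651) are marked where they are described. The named genes include the largest changes, so they do not stand for all called genes. The log2 fold changes of these 38 in that fit were 0.54 (Eprs) to 1.13 times those reported, and 8 were larger. The part of RNA integrity in those results was not tested further.

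Amino acid response genes rose. Of 33 measured members 29 rose and the median log2 fold change was 1.12, against 2.83% of all genes rising and a median of 0.029. The count was 29 when any 1 of the 6 arrays was left out, and 21 with the block and the actin measure. The pathway was known to respond in these samples, so the list's direction is not independent evidence.

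ATF4 and its partners bind the C/EBP-ATF response element, searched here as TGATGNAA on both strands from 250 bases before to 50 bases after each start in RefSeq promoters (GRCm38.p6). The element was found in 468 of 14452 tested genes with a window (3.24%), in 7 of the 26 called amino acid response genes with a window and in 3 of the 4 that were not called. The 4 stretches below, each of 60 bases upstream of the start, are shown because they carry the element in genes with large responses. They lie at chr6:7693210-7693269 (minus strand, Asns), chr2:119351023-119351082 (plus strand, Chac1), chr1:191183410-191183469 (minus strand, Atf3) and chr14:55540137-55540196 (plus strand, Pck2). Capitals mark the element, read on either strand; in Asns a heat shock element match overlaps it.
Asns: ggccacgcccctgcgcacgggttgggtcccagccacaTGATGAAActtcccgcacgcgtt
Chac1: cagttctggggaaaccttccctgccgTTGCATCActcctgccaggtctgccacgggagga
Atf3: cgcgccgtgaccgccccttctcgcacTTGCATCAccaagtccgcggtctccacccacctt
Pck2: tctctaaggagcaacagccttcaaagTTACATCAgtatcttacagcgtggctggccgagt

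Among the transcription factors, Atf4 itself measured 5349, 6051 and 6334 with MAZ1310 and 7793, 8659 and 7996 with HF. The groups did not overlap, yet the log2 fold change was only 0.47 ± 0.08 (SE; n = 3 per group, limma adjusted p = 0.00216), and the call was lost without replicate number 2 and with the block and the actin measure (limma adjusted p = 0.0644 and 0.275). Ddit3, which encodes the pro-apoptotic factor CHOP, measured 395, 413 and 345 with MAZ1310 and 2135, 1944 and 2387 with HF. Every HF array stood well clear of every MAZ1310 array, and the log2 fold change was 2.49 ± 0.12 (adjusted p = 5.78e-09). Atf3, a stress-induced repressor of the same bZIP family, rose by 1.61 ± 0.13 on the log2 scale. Cebpb, a C/EBP partner of ATF4, went from 737, 978 and 892 to 3234, 3859 and 3064, a log2 fold change of 1.97 ± 0.11. Atf5 rose by 1.23 ± 0.16 from 316, 475 and 374 to 716, 1124 and 905.

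Feedback and effector genes of the pathway rose. Trib3, a pseudokinase that binds ATF4 and CHOP, measured 154, 202 and 279 with MAZ1310 and 1463, 1481 and 1557 with HF, a log2 fold change of 2.87 ± 0.23. Chac1, which breaks down glutathione, went from 154, 111 and 134 to 841, 911 and 738 (log2 fold change 2.65 ± 0.14). Both groups of arrays were far apart for these genes. Eif4ebp1, a brake on cap-dependent translation, went from 289, 342 and 221 to 1739, 2085 and 2011 (2.79 ± 0.13). Sesn2, a leucine sensor that restrains mTORC1, rose by 1.12 ± 0.09, and Herpud1, a component of ER-associated degradation, by 1.28 ± 0.10. Ddit4, another restraint on mTORC1, went from 477, 646 and 446 to 1406, 1265 and 1295 (1.35 ± 0.11).

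Genes of amino acid metabolism and uptake rose as well. Gpt2, the mitochondrial alanine aminotransferase, measured 32.9, 41.5 and 41.8 with MAZ1310 and 317, 376 and 377 with HF, and its log2 fold change of 3.21 ± 0.11 corresponds to 9.23-fold. Asns, asparagine synthetase, went from 119, 171 and 176 to 373, 551 and 518 (log2 fold change 1.63 ± 0.17, adjusted p = 3.38e-05). The lowest HF array was above the highest MAZ1310 array for both genes. Pck2, the mitochondrial enzyme that makes phosphoenolpyruvate, rose by 2.29 ± 0.11, and Phgdh, which starts serine synthesis, by 1.76 ± 0.10. The carriers Slc6a9 (glycine), Slc7a3 (cationic amino acids) and Slc7a5 (large neutral amino acids) rose by 1.29 ± 0.10, 1.01 ± 0.17 and 0.92 ± 0.09. Cth, the cysteine-forming lyase of transsulfuration, named after its values were seen, went from 23.2, 25.7 and 22.9 to 36.3, 76.0 and 48.7 (1.10 ± 0.20) and lost its call with the block and the actin measure.

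**Figure D2:**
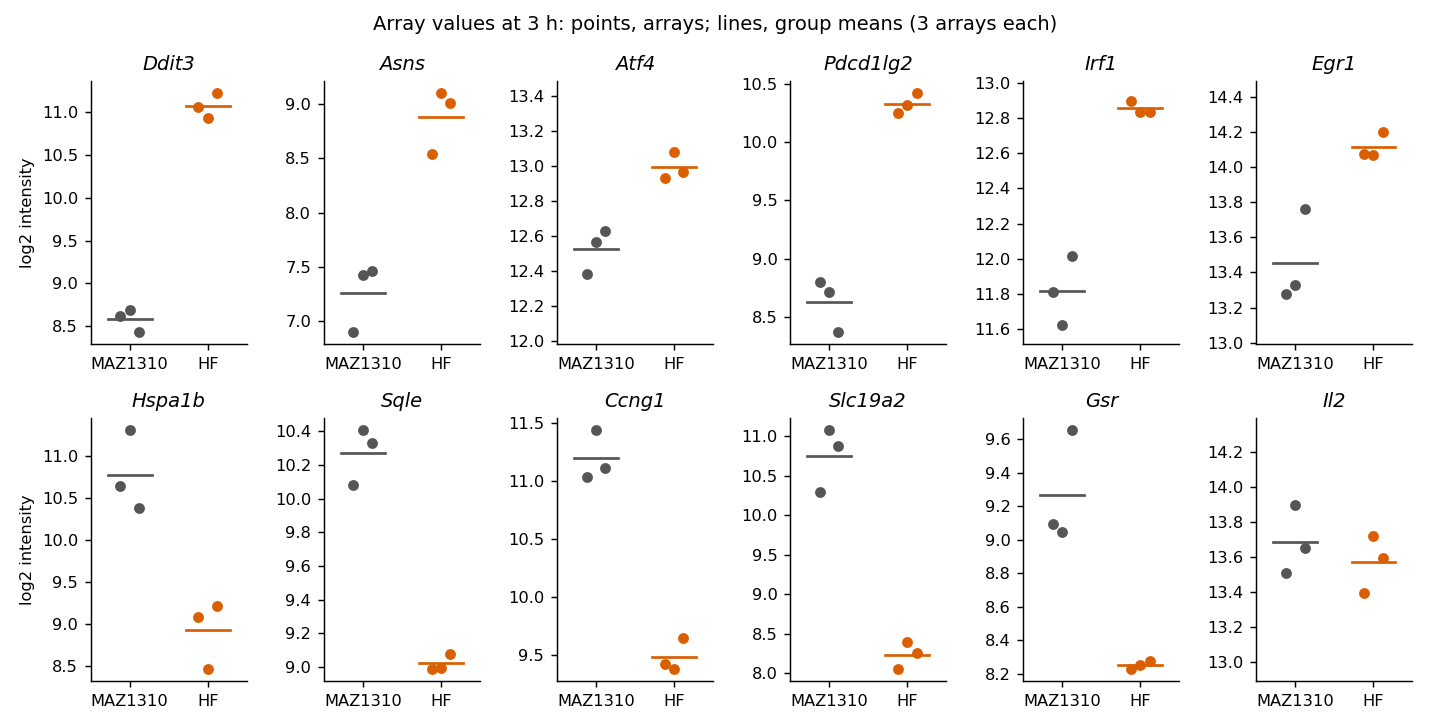
Log2 intensity (vertical axis) of single arrays at 3 h for selected genes, with 3 MAZ1310 and 3 HF arrays per gene and a line at each group mean. Ddit3 lies between 345 and 413 with MAZ1310 and between 1944 and 2387 with HF, and Slc19a2 between 1259 and 2172 against 265 and 335.

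Charging enzymes rose in part. Of 35 measured aminoacyl tRNA synthetases 11 rose (31.4%, against 2.83% of all genes) and 2 fell (5.71%, near the 6.66% of all genes). With the block and the actin measure 5 rose. The lower count of 2 was 1 without HF replicate 1, HF replicate 3, MAZ1310 replicate 2 or MAZ1310 replicate 3. It was 5 without MAZ1310 replicate 1 and 5 with the replicate block. Aars and Lars, for alanine and leucine, rose by 1.43 ± 0.10 and 1.19 ± 0.10. Eprs, the target enzyme, measured 2687, 3209 and 3753 with MAZ1310 and 3981, 4482 and 4324 with HF, a log2 fold change of 0.42 ± 0.10 (adjusted p = 0.0169). Its groups did not overlap, but the call was lost without HF replicate 2 or 3 (limma adjusted p = 0.0706 and 0.0573), in a fit of the 6 arrays alone (0.0933) and with the block and the actin measure. Pars2, the mitochondrial prolyl-tRNA synthetase, named after its values were seen, measured 179, 199 and 202 with MAZ1310 and 178, 174 and 163 with HF (log2 fold change -0.17, adjusted p = 0.261).

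Of 19 measured genes of prolyl-tRNA synthetases and the eIF2 kinase pathway 3 rose and 6 fell, against 2.83% and 6.66% of all genes. With single arrays left out the count of 6 moved. It was 2 without HF replicate 1, 2 without HF replicate 2 and 3 without HF replicate 3. Without MAZ1310 replicate 1, 2 or 3 it was 8, 3 and 1. After cyclic loess it was 2, and with the replicate block it stayed at 6. With the block and the actin measure none of the 19 rose and 1 fell. Eif2b4, a subunit of the exchange factor eIF2B, fell from 1017, 1365 and 1143 to 633, 732 and 634 (-0.81 ± 0.10). Eif2ak4, which encodes GCN2, measured 201, 202 and 263 with MAZ1310 and 166, 151 and 166 with HF (-0.46 ± 0.12, adjusted p = 0.0195). That call was lost without HF replicate 2 or MAZ1310 replicate 3 and with the block and the actin measure. A dimmer probe set of the gene, without a suffix, gave 0.20 (mean log2 intensity 6.21 against 7.6).

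Beyond the amino acid response, genes for surface ligands rose in part. Of 31 measured costimulatory and checkpoint genes 7 rose (22.6%, against 2.83% of all genes) and 2 fell (6.45%, near the 6.66% of all genes); 4 rose without HF replicate 1, and the lower count was 1 without HF replicate 2 or MAZ1310 replicate 2, 5 without HF replicate 3 and 4 with the replicate block. With the block and the actin measure 4 rose and no member fell. Pdcd1lg2, which encodes the PD-1 ligand PD-L2, measured 446, 418 and 330 with MAZ1310 and 1220, 1280 and 1374 with HF. Its groups lay far apart, with a log2 fold change of 1.71 ± 0.13 (adjusted p = 8.82e-07). Cd274, the other PD-1 ligand, PD-L1, went from 1777, 1818 and 2516 to 4082, 3546 and 5057 (1.06 ± 0.15, adjusted p = 0.000436). Btla, an inhibitory receptor, rose by 0.48 ± 0.08. Tnfrsf9, the costimulatory receptor 4-1BB, fell by 0.51 ± 0.10 on the log2 scale and lost its call with the block and the actin measure. Icam1, Slamf7 and Pvr were named after their values were seen. Icam1, the adhesion ligand of LFA-1, went from 2282, 2461 and 2525 to 4966, 4864 and 4881 (1.02 ± 0.09), Slamf7 rose by 1.11 ± 0.12, and Pvr, the ligand of CD226 and TIGIT, by 0.95 ± 0.09.

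Immediate early genes, switched on by activation without new protein synthesis, rose in part. Of 26 measured members 12 rose (46.2%, against 2.83% of all genes) and 1 fell (3.85%, against 6.66%), with a median log2 fold change of 0.35. With the block and the actin measure 3 rose. Atf3, counted above in the amino acid response, is also a member and had the largest rise of this list. Egr1 measured 9940, 10269 and 13883 with MAZ1310 and 17258, 17222 and 18859 with HF, with no overlap and a log2 fold change of 0.66 ± 0.11 (adjusted p = 0.00119). Fos went from 2362, 1874 and 2463 to 3423, 3003 and 3935 (0.63 ± 0.14), and Egr3 rose by 0.56 ± 0.12. The member that fell was Fosl1, a Fos relative that accumulates later in activation, from 903, 888 and 880 to 612, 526 and 550 (-0.67 ± 0.08). Egr1 and Fos lost their calls with the block and the actin measure, and Egr3 for the mean of its probe sets (limma adjusted p = 0.0732).

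Genes of mRNA decay and its control rose in part: 6 of 28 measured genes (21.4%, against 2.83% of all genes), and 3 with the block and the actin measure. Zfp36, the AU-rich element binding protein tristetraprolin, went from 3100, 3207 and 3461 to 5507, 5177 and 6282 (0.79 ± 0.12), a call lost with the block and the actin measure. Btg2, which recruits deadenylases, rose by 0.74 ± 0.12, and Pnrc1, a decapping cofactor, by 0.56 ± 0.10. Of 24 measured NF-kappaB genes 7 rose (29.2%, against 2.83% of all genes) and 1 fell (4.17%, against 6.66%). With the block and the actin measure 1 rose. Traf1, an adaptor of TNF receptors, rose by 0.78 ± 0.12, Nfkbiz by 0.74 ± 0.09, Relb by 0.61 ± 0.09 and Tnfaip3, the deubiquitinase A20, by 0.55 ± 0.12. Of these 4, Nfkbiz, Relb and Tnfaip3 lost their calls with the block and the actin measure, and Tnfaip3 also for the mean of its probe sets.

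Interferon-response genes rose in part. Of 27 measured members 9 rose (33.3%, against 2.83% of all genes), with a median log2 fold change of 0.43. With the replicate block 15 rose, a change of more than 1.5 times, and with the block and the actin measure 6. Irf1, the transcription factor that drives many of them, measured 3583, 3156 and 4130 with MAZ1310 and 7643, 7297 and 7302 with HF, with a wide gap between the groups (1.04 ± 0.11, adjusted p = 2.09e-05). Gbp7, a guanylate-binding GTPase of cell-autonomous defence, went from 3822, 2941 and 4017 to 7697, 7985 and 9371 (1.22 ± 0.19). Gbp6 rose by 1.19 ± 0.13 and Gbp8 by 1.24 ± 0.20. The Gbp genes are paralogues in one family; the probe sets used for these members carry no cross-hybridisation suffix, and whether they share signal was not tested. Irgm2, an immunity-related GTPase, rose by 0.82 ± 0.18. Tap1, a subunit of the peptide transporter for MHC class I, went from 2422, 2405 and 2145 to 4457, 4360 and 4288 (0.91 ± 0.08), but the mean of its probe sets gave 0.24 (limma adjusted p = 0.0741). Psmb9, an immunoproteasome subunit, rose by 0.80 ± 0.14. Irgm2 and Psmb9 lost their calls with the block and the actin measure, with log2 fold changes of 0.75 and 0.85 in that fit.

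Interferon regulatory factors bind the interferon-stimulated response element, searched here as 2 copies of GAAA with any 2 bases between them, on both strands of the same window. It was found in 3.63% of all tested genes with a window, in 4 of 6 called members of the list and in 6 of 13 that were not called. The 2 stretches shown lie at chr3:142530257-142530316 (plus strand, Gbp7) and chr11:58214887-58214946 (plus strand, Irgm2) and hold the element, in capitals, close to the start of genes that rose.
Gbp7: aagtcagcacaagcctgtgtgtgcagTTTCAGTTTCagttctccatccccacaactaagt
Irgm2: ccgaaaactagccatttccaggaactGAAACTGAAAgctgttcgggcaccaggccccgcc

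Single cytokine receptor genes changed. Of 43 measured JAK, STAT, SOCS, IRF and receptor genes 5 rose (11.6%, against 2.83% of all genes) and 3 fell (6.98%, near the 6.66% of all genes); without MAZ1310 replicate 1 the counts were 8 and 6, with the replicate block 8 and 5, and with the block and the actin measure 1 and 2. The receptor of IL-21, Il21r, measured 1442, 1820 and 1544 with MAZ1310 and 757, 811 and 644 with HF, clear of any overlap, and fell by 1.12 ± 0.11 on the log2 scale (adjusted p = 1.19e-05). Il4ra, a chain of the IL-4 receptor, fell by 0.56 ± 0.09. The receptor of the added cytokine, Il6ra, went up from 1415, 895 and 1427 to 2255, 2238 and 2537 (0.94 ± 0.17, adjusted p = 0.00219). Il4ra and Il6ra lost their calls with the block and the actin measure, with log2 fold changes of -0.47 and 1.00 in that fit.

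Most genes of the Th17 programme were not called at 3 h. Of 34 measured members of the Th17, IL-6 and TGF-beta list 3 rose and 3 fell, 8.82% each against 2.83% and 6.66% of all genes; with the block and the actin measure none rose and 1 fell. Il17a, the signature cytokine, measured 1163, 730 and 536 with MAZ1310 and 1185, 810 and 740 with HF, and the groups overlapped (log2 fold change 0.21 ± 0.34, 95% interval -0.50 to 0.93, adjusted p = 0.767). Rora, a receptor that drives the fate, differed by 0.19 (adjusted p = 0.623). Batf, an AP-1 factor required for Th17 cells, rose by 0.49 ± 0.10 and Tbx21, the Th1 factor T-bet, by 0.60 ± 0.11. Smad3, which carries the TGF-beta signal, fell by 0.54 ± 0.12 and Id1, a target of that family, by 0.57 ± 0.11. Batf, Tbx21 and Id1 lost their calls with the block and the actin measure, with log2 fold changes of 0.55, 0.35 and -0.65 in that fit, and Smad3 lost its call in the fit of the 6 arrays alone.

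Of 37 measured T cell receptor signalling genes 3 rose (8.11%, against 2.83% of all genes) and 7 fell (18.9%, against 6.66%). With the block and the actin measure 1 rose and 2 fell. Rasgrp1, which links diacylglycerol to Ras, went from 959, 862 and 994 to 1929, 1710 and 2071 (1.02 ± 0.11). Csk, the kinase that restrains Lck, fell from 2042, 2159 and 2776 to 1315, 1180 and 1386 (-0.84 ± 0.11), and Ubash3a, a negative regulator of the receptor, fell by 0.64 ± 0.13 on the log2 scale, a call lost with the block and the actin measure. Cd3e measured 2654, 2599 and 1621 with MAZ1310 and 2094, 1735 and 1545 with HF (-0.33, adjusted p = 0.23), and was called without MAZ1310 replicate 3 (-0.56, limma adjusted p = 0.00573). Cd4 differed by -0.11 (adjusted p = 0.621). Of 38 measured cytokines and chemokines 2 rose (5.26%, against 2.83% of all genes). That count was 1 without HF replicate 3 or MAZ1310 replicate 3 and 5 with the replicate block. The 2 that rose were Lif, by 0.57 ± 0.13, and Lta, by 0.52 ± 0.15 (limma adjusted p = 0.0463). The call of Lta was lost without HF replicate 2, HF replicate 3, MAZ1310 replicate 1 or MAZ1310 replicate 3. Lif and Lta both lost their calls with the block and the actin measure, where 2 other members of the list were called higher. Il2, the growth factor of activated T cells, measured 11642, 15234 and 12872 with MAZ1310 and 10757, 13512 and 12391 with HF (-0.11 ± 0.10, 95% interval -0.34 to 0.11, adjusted p = 0.578).

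Chaperone genes fell in part. Of 46 measured heat shock and cytosolic chaperone genes 16 fell, against 6.66% of all genes, with a median log2 fold change of -0.21; 9 fell with the block and the actin measure. Heat shock factor binds inverted GAA units, searched here as GAANNTTC, a match that reads the same on both strands. It was found in 7.60% of all tested genes with a window, in 8 of 14 called chaperone genes and in 7 of 27 that were not called. The match was also in 3 of 6 called interferon-response genes, which rose. Called members of other lists had it in 1 of 26 (amino acid response), 1 of 12 (sterol) and 0 of 12 (p53). The stretches shown, in which capitals mark the element, lie at chr17:34959309-34959368 (minus strand, Hspa1b), chr17:34972227-34972286 (minus strand, Hspa1a), chr4:40722318-40722377 (plus strand, Dnaja1) and chr6:128438774-128438833 (minus strand, Fkbp4). Hspa1a and Hspa1b have the same 60 bases here.
Hspa1b: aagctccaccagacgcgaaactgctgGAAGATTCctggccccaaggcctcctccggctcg
Hspa1a: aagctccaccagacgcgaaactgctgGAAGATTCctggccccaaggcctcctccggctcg
Dnaja1: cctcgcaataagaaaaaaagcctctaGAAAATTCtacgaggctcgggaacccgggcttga
Fkbp4: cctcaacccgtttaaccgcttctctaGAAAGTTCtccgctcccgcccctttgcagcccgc

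Hspa1b, an inducible HSP70, measured 1600, 2555 and 1340 with MAZ1310 and 546, 354 and 596 with HF, without overlap (-1.86 ± 0.29, adjusted p = 0.000902). Hspa1a, its near-identical copy, fell from 304, 528 and 401 to 178, 127 and 213 (-1.24 ± 0.22); probe sets of the pair can share signal, so the 2 values are not independent, and Hspa1a lost its call with the block and the actin measure. Hsph1, an HSP110 that recharges HSP70, fell from 6427, 8469 and 8364 to 2344, 2900 and 2487 (-1.58 ± 0.12). All 3 HF arrays were below all 3 MAZ1310 arrays in each case. Bag3, a cochaperone of HSP70, went from 400, 532 and 484 to 234, 180 and 205 (-1.19 ± 0.12). The J-domain partners Dnaja1 and Dnajb1 fell by 0.96 ± 0.09 and 0.85 ± 0.08 on the log2 scale. Fkbp4, an HSP90 cochaperone, fell by 1.15 ± 0.14, but its best probe set without a suffix gave -0.33 (limma adjusted p = 0.184).

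In the endoplasmic reticulum, 11 of 49 measured folding and degradation genes fell (22.4%, against 6.66% of all genes). Another 2 rose (4.08%, against 2.83% of all genes), 1 of them Herpud1. The count of 2 was 1 without HF replicate 2, HF replicate 3, MAZ1310 replicate 1 or MAZ1310 replicate 3, and 1 gene fell with the block and the actin measure. Pdia3 and Pdia4, disulfide isomerases, fell by 0.81 ± 0.10 and 0.69 ± 0.10 on the log2 scale, and Hsp90b1, the ER form of HSP90, by 0.71 ± 0.12. All of these 3 lost their calls with the block and the actin measure.

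Sterol synthesis genes fell in part. Of 43 measured sterol and fatty acid synthesis genes 17 fell (39.5%, against 6.66% of all genes), with a median log2 fold change of -0.18. The count was 11 without HF replicate 2, 11 without HF replicate 3, 11 without MAZ1310 replicate 2 and 6 with the block and the actin measure. Sqle, squalene epoxidase, measured 1082, 1361 and 1289 with MAZ1310 and 508, 511 and 541 with HF (-1.25 ± 0.09, adjusted p = 5.24e-07). Idi1, the isomerase of isopentenyl diphosphate, fell from 1413, 2000 and 2160 to 693, 805 and 795 (-1.26 ± 0.14). Hmgcs1, which makes HMG-CoA, fell from 2277, 2669 and 3074 to 1081, 1062 and 1372 (-1.19 ± 0.12). Every HF array was below every MAZ1310 array for these 3 genes. Fdft1, squalene synthase, Cyp51, the lanosterol demethylase, and Sc5d, a desaturase, fell by 1.15 ± 0.12, 1.07 ± 0.13 and 0.88 ± 0.12, and Sc5d lost its call with the block and the actin measure. The SREBP element, searched as TCACNCCAC, was found in 1.46% of all tested genes with a window and in 1 of 12 called members.

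Targets of p53 fell in part. Of 38 measured pathway genes 14 fell (36.8%, against 6.66% of all genes) and 1 rose (2.63%, near the 2.83% of all genes). The median log2 fold change was -0.24, and 5 fell with the block and the actin measure. Ccng1, cyclin G1, measured 2095, 2780 and 2218 with MAZ1310 and 687, 667 and 803 with HF, far apart (-1.71 ± 0.11, adjusted p = 1.5e-07). Zmat3, an RNA-binding p53 target, fell from 394, 638 and 559 to 218, 268 and 257 (-1.08 ± 0.14), and Cdkn1a, the cell cycle inhibitor p21, from 1616, 2138 and 1651 to 1259, 1145 and 1277 (-0.54 ± 0.10). Ddias fell by 1.37 ± 0.17 on the log2 scale, Psrc1, a spindle protein, changed by -1.32 ± 0.21, and further decreases were those of Polk, a translesion polymerase, (-1.01 ± 0.13), Ei24 (-0.97 ± 0.10) and Gtse1, which moves p53 out of the nucleus (-0.60 ± 0.10). Psrc1, Polk and Cdkn1a lost their calls with the block and the actin measure.

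Slc19a2, a thiamine transporter, had the largest decrease of the genes named here. It measured 1259, 2172 and 1890 with MAZ1310 and 265, 335 and 306 with HF, and its log2 fold change of -2.52 ± 0.16 (adjusted p = 1.41e-07) corresponds to 5.75-fold. Slc39a10, a zinc importer, fell from 1977, 2407 and 2277 to 742, 778 and 878 (-1.47 ± 0.10). Slc29a3, a nucleoside carrier of lysosomes, fell by 0.87 ± 0.13 and Slc5a6, the biotin and pantothenate carrier, by 0.65 ± 0.11; both lost their calls with the block and the actin measure. In all, 8 of 34 measured vitamin, nucleoside and metal carriers fell (23.5%, against 6.66% of all genes). Only 1 rose (2.94%, near the 2.83% of all genes), and 2 fell with the block and the actin measure.

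Genes that guard against oxidants fell in part: 17 of 37 measured members of the NRF2, thioredoxin, glutathione and pentose phosphate list (45.9%, against 6.66% of all genes). In this list 1 rose (2.70%, near the 2.83% of all genes) and the median log2 fold change was -0.28. With the block and the actin measure 7 fell. Gsr, glutathione reductase, measured 546, 529 and 807 with MAZ1310 and 300, 305 and 310 with HF (-1.01 ± 0.12). Txnrd1, thioredoxin reductase, went from 6304, 5623 and 9197 to 4408, 3526 and 4442 (-0.75 ± 0.15), and was not called for the mean of its probe sets (limma adjusted p = 0.0857). For both genes MAZ1310 replicate 3 was the highest array. Gclm, the modifier subunit of glutamate-cysteine ligase, fell by 0.90 ± 0.15, and Gclc, its catalytic subunit, named after its values were seen, by 0.60 ± 0.10. Prdx2, a peroxiredoxin, and Cat, catalase, fell by 0.81 ± 0.10 and 0.74 ± 0.13. Gclc and Cat lost their calls with the block and the actin measure.

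Glycolysis and hypoxia genes fell in part. Of 33 measured members 14 fell (42.4%, against 6.66% of all genes) and 1 rose (3.03%, near the 2.83% of all genes). The median log2 fold change was -0.27. The lower count was 7 without HF replicate 2, 9 without MAZ1310 replicate 3 and 5 with the block and the actin measure. The one that rose was Vegfa, the angiogenic growth factor, from 81.6, 97.1 and 88.4 to 279, 291 and 296 (1.70 ± 0.09), with HF arrays close together and far above the MAZ1310 arrays. Egln1, the oxygen-sensing prolyl hydroxylase, fell from 557, 678 and 765 to 353, 410 and 319 (-0.88 ± 0.12). Tpi1 and Pfkl, enzymes of glycolysis, fell by 0.77 ± 0.11 and 0.78 ± 0.13 on the log2 scale. A dimmer probe set of Pfkl without a suffix gave -0.28 (limma adjusted p = 0.117), and another suffixed probe set of the gene gave -0.45. Car12, a carbonic anhydrase, fell by 0.72 ± 0.11.

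Genes of growth and division fell in part, with counts that moved when single arrays were left out. Of 45 measured DNA replication genes 16 fell (35.6%, against 6.66% of all genes). That count was 9 without HF replicate 1, 10 without HF replicate 2, 10 without MAZ1310 replicate 3 and 1 with the block and the actin measure. Mcm6, a subunit of the replicative helicase, fell from 1846, 1843 and 2599 to 1321, 1116 and 1176 (-0.78 ± 0.12), and Rpa1, which coats single-stranded DNA, by 0.61 ± 0.08, a call lost with the block and the actin measure. Of 30 measured G1 genes 7 fell (23.3%, against 6.66% of all genes), and 2 with the block and the actin measure. Among the 7, Cdk4, the G1 kinase, fell by 0.78 ± 0.12 and E2f6, a repressor of E2F targets, by 0.80 ± 0.11. Of 28 measured nucleotide synthesis genes 6 fell (21.4%, against 6.66% of all genes). That count was 3 without HF replicate 1, 3 without MAZ1310 replicate 3, 12 without MAZ1310 replicate 1 and 2 with the block and the actin measure. Prps2, which makes phosphoribosyl pyrophosphate, fell by 0.86 ± 0.09 and Dhodh, of pyrimidine synthesis, by 0.78 ± 0.11. Of 39 measured spindle and mitosis genes 4 fell, a share of 10.3% against 6.66% of all genes.

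Of 47 measured nuclear pore and transport genes 11 fell (23.4%, against 6.66% of all genes) and 1 rose (2.13%, against 2.83%). The lower count was 4 without HF replicate 1, 7 without HF replicate 2, 18 without MAZ1310 replicate 1, 6 without MAZ1310 replicate 2, 5 without MAZ1310 replicate 3 and 1 with the block and the actin measure. Xpo1, the main nuclear export receptor, fell from 1254, 1561 and 1578 to 732, 682 and 729 (-1.03 ± 0.09), and Aaas, the pore protein aladin, by 0.81 ± 0.14. The one that rose was Xpot, which exports tRNAs, by 0.51 ± 0.10; Aaas and Xpot lost their calls with the block and the actin measure. Of 43 measured proteasome subunits 8 fell (18.6%, against 6.66% of all genes), 5 without HF replicate 2 and none with the block and the actin measure. The immunoproteasome subunit Psmb9 described above was the only 1 that rose (2.33%, against 2.83% of all genes). Psmc3, a base ATPase, fell by 0.65 ± 0.10, a call lost with the block and the actin measure.

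Nonsense-mediated decay removes some transcripts as they are translated, among them spliced host transcripts of small nucleolar RNAs. Of 20 measured decay targets and host genes 6 rose (30.0%, against 2.83% of all genes) and 4 fell (against 6.66% of all genes), so the list had no common direction; the 6 became 2 without HF replicate 1, 3 without HF replicate 2, 2 without HF replicate 3, 3 without MAZ1310 replicate 3 and 2 with the block and the actin measure. Of the 6 that rose, 5 were host genes, Snhg1, Snhg6, Snhg8, Snhg12 and Zfas1, and the other was Gadd45b; those that fell were Bag1, Cdkn1a, Gabarapl1 and Tbl2. Snhg6 measured 3286, 3916 and 2092 with MAZ1310 and 5765, 6317 and 6427 with HF (1.04 ± 0.16), with MAZ1310 replicate 3 the lowest array. Snhg12 went from 1947, 2244 and 1235 to 3205, 2998 and 3378 (0.86 ± 0.16), with the same array lowest.

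**Figure D3:**
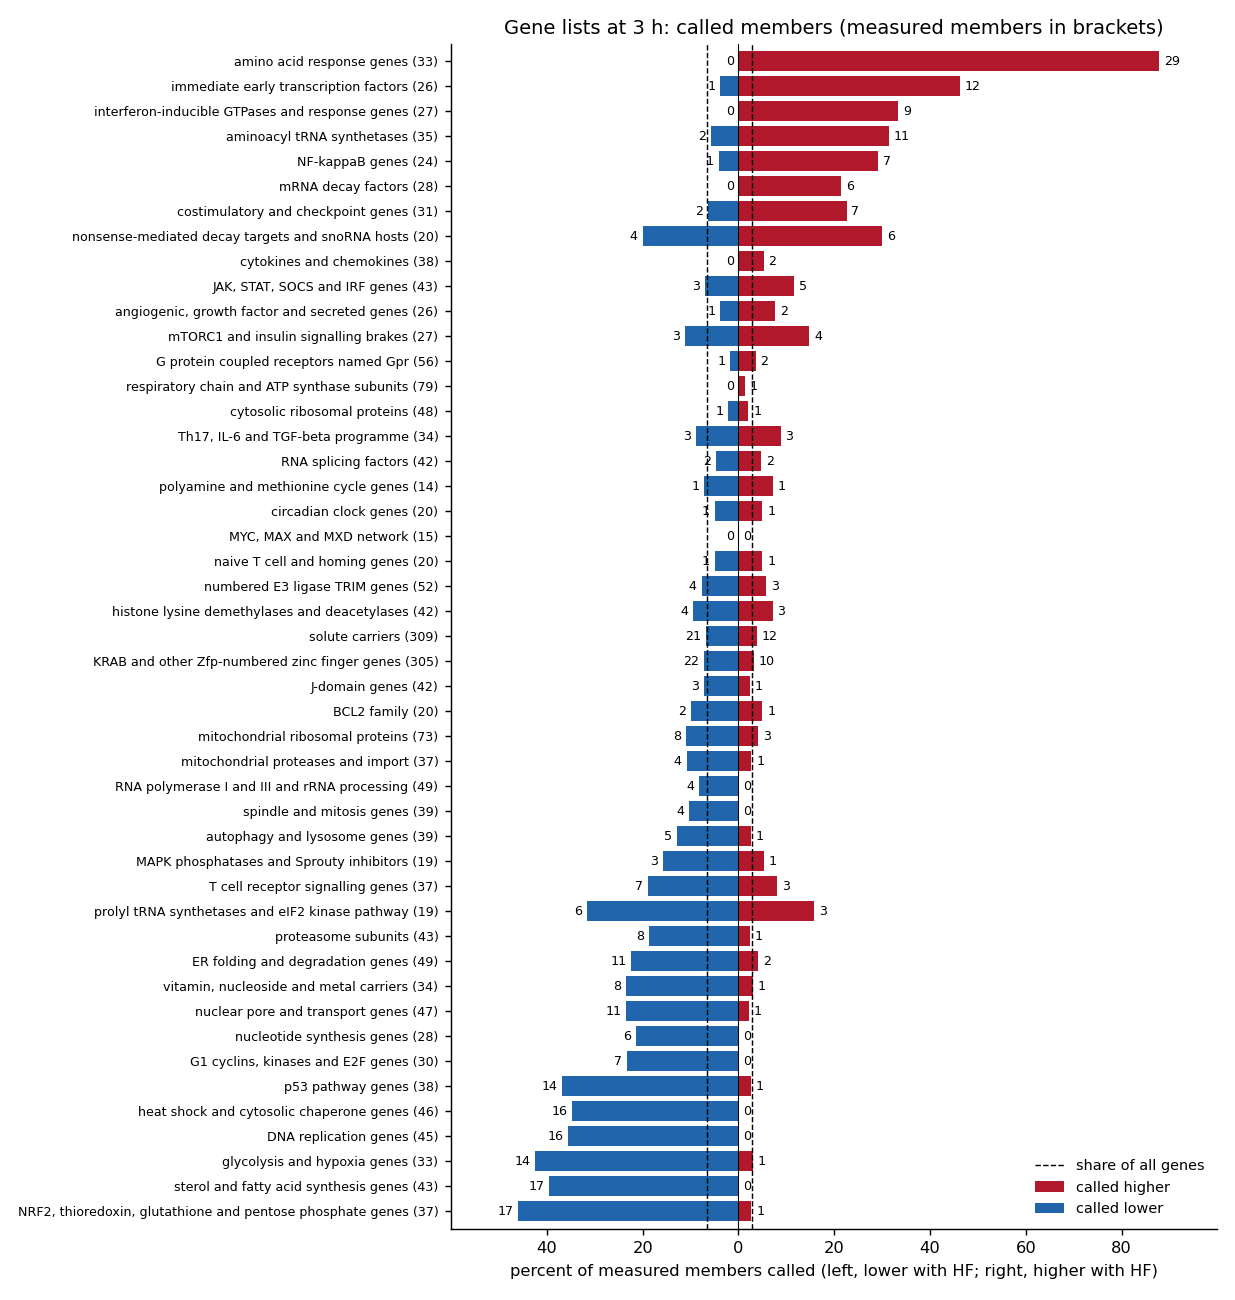
Percent of measured members called at 3 h (horizontal axis, lower with HF to the left, higher to the right) for each gene list (rows, number measured in brackets), with the counts at the bar ends. Dashed lines mark the shares of all genes, 2.83% higher and 6.66% lower; the amino acid response has 29 of 33 called higher, and the NRF2 list 17 of 37 called lower.

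Large changes were also found in genes outside the groups above. Among increases, Ncoa7, an oxidation resistance factor, went from 350, 210 and 375 to 998, 725 and 1073 (1.61 ± 0.24), and the tight junction gene Cldn12 from 128, 127 and 138 to 351, 391 and 347 (1.47 ± 0.08). Arl14ep and Rhbdd1, a rhomboid protease, rose by 1.36 ± 0.16 and 1.31 ± 0.10, and Chd2, a chromatin remodeller, by 1.00 ± 0.14. Among decreases, Nefh, a neurofilament subunit, fell from 699, 1356 and 1141 to 280, 436 and 264 (-1.69 ± 0.22), and the kinase gene Sbk1 from 348, 438 and 460 to 129, 128 and 154 (-1.59 ± 0.13). No HF array reached the lowest MAZ1310 array for either gene, which was a condition of naming them. Atp23, a mitochondrial protease, fell by 1.33 ± 0.12 on the log2 scale, Tent5c, a poly(A) polymerase, by 1.15 ± 0.12, and Gpd1l and Klhl42 by 1.13 ± 0.11 and 1.13 ± 0.18. Abhd17a, a depalmitoylase, fell by 1.19 ± 0.10, Tuba1a, an alpha tubulin, by 1.13 ± 0.11, Pdxp, a pyridoxal phosphatase, by 1.09 ± 0.14 and Kdm1b, a histone demethylase, by 0.73 ± 0.10. Tmem109, a membrane protein, fell by 1.23 ± 0.13, while its best probe set without a suffix gave -0.39 (limma adjusted p = 0.124).

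Several groups had few calls, or shares near those of all genes. Of 48 measured cytosolic ribosomal proteins 1 rose and 1 fell, 2.08% each against 2.83% and 6.66% of all genes. The higher count was 0 without HF replicate 2 or HF replicate 3 and 3 without MAZ1310 replicate 1. Of 79 respiratory chain and ATP synthase subunits 1 rose (1.27%, against 2.83% of all genes). Against 6.66% of all genes, limma called 0 of them lower (7 were lower with a p under 0.05 before adjustment). That higher count was 0 without HF replicate 1, HF replicate 2, HF replicate 3 or MAZ1310 replicate 3, and the lower count was 15 without MAZ1310 replicate 3 and 3 with the replicate block. Of 305 numbered Zfp genes 10 rose and 22 fell, and of 309 solute carriers 12 rose and 21 fell, shares of 10.5% and 10.7% against 9.49% of all genes; with the replicate block 20 carriers rose; the higher Zfp count was 6 without HF replicate 2 or HF replicate 3, and the lower carrier count was 11 without HF replicate 1, 12 without MAZ1310 replicate 2 and 13 without MAZ1310 replicate 3. Of 15 genes of the MYC, MAX and MXD network limma called 0 (2 had a p under 0.05 before adjustment), and of 10 COMMD genes also 0 (5 before adjustment). With the replicate block, and also without MAZ1310 replicate 3, 2 of the MYC network genes were called higher and 1 lower, and 1 COMMD gene was called lower; that COMMD count was also 1 without HF replicate 3.

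**Figure D4:**
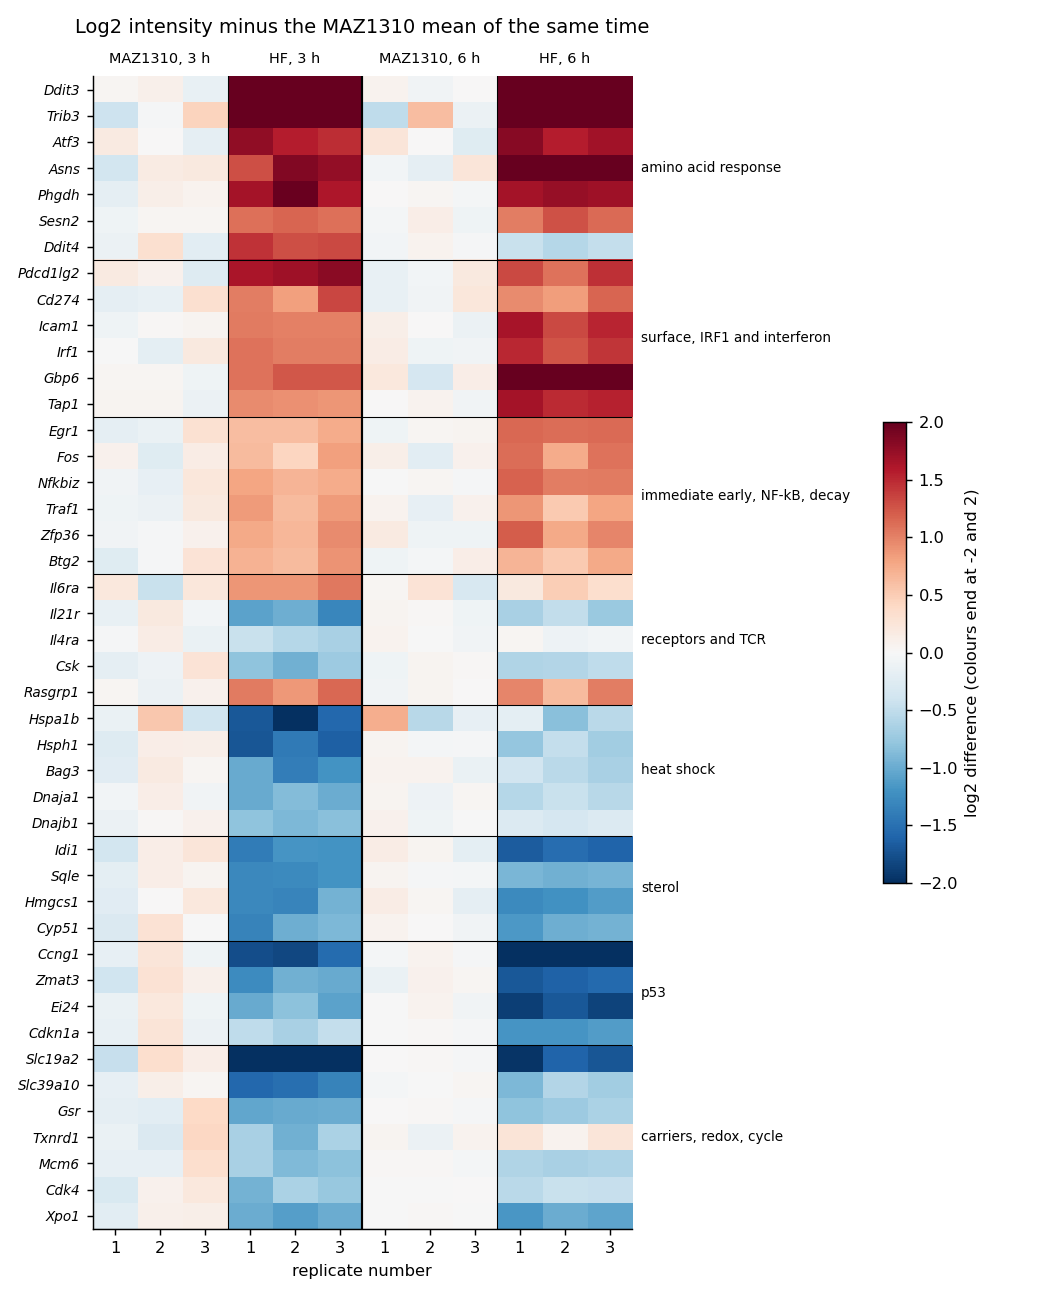
Log2 intensity minus the MAZ1310 mean of the same time (colour, ending at -2 and 2) for selected genes (rows, by group) on all 12 arrays (columns, by treatment, time and replicate number). At 3 h Ddit3 is high on all 3 HF arrays and Slc19a2 and Ccng1 are low on all 3, and Ddit4 is high with HF at 3 h and low at 6 h.

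Different probe sets of a gene disagreed in sign for 13 named genes (Abhd17a, Car12, Eif2ak4, Fdft1, Pdia3, Pdia4, Psrc1, Pvr, Rora, Tap1, Tmem109, Tnfrsf9 and Xpo1), and no probe set was called in the direction opposite to the one used.

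The 6 h arrays share no array with those of 3 h. At 6 h 3085 genes (17.0%) were called, and 1099 genes were called at both times in the same direction, 63.7% of the calls at 3 h and 35.6% of those at 6 h. Of the 96 genes past 2-fold at 3 h, 89 were called at 6 h in the same direction. A test of the difference between the HF effects at the 2 times called 328 genes (1.80%), and 146 of them were called at 3 h; 69 of the 146 had the larger effect at 3 h and 77 at 6 h. The count of 328 was 129 without HF replicate 1, 180 without HF replicate 3 and 602 without MAZ1310 replicate 1, all at 3 h; it was 680 with the replicate block and 819 with the block and the actin measure.

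Ddit4 turned round between the times. At 6 h it measured 1637, 1783 and 1679 with MAZ1310 and 1248, 1146 and 1221 with HF, a log2 fold change of -0.50 ± 0.11 against 1.35 ± 0.11 at 3 h, and the difference of -1.85 had an adjusted p of 0.000139. The HF arrays were close at both times and the MAZ1310 arrays higher at 6 h. Zbed5 and Fnip2 turned the other way. Zbed5, named after its values were seen, went from 380, 430 and 540 to 258, 271 and 229 at 3 h and from 389, 380 and 333 to 651, 637 and 598 at 6 h. Fnip2, a folliculin partner in nutrient signalling, had log2 fold changes of -0.64 ± 0.12 at 3 h and 0.51 ± 0.12 at 6 h. In all 12 genes were called in opposite directions at the 2 times.

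The chaperone decrease was larger early for Hsph1, with -1.58 ± 0.12 at 3 h and -0.65 ± 0.12 at 6 h (adjusted p of the difference 0.0102), and for Dnajb1, with -0.85 ± 0.08 and -0.30 ± 0.08 (0.0237), a call of difference lost without HF replicate 1 or HF replicate 3. Other early decreases were not called at 6 h. Ppargc1b, a coactivator of mitochondrial genes named after its values were seen, fell from 320, 324 and 324 to 153, 169 and 180 at 3 h and differed by -0.14 at 6 h (adjusted p of the difference 0.0113). Pdxp, Car12 and Slc5a6 differed by -0.03, 0.23 and 0.18 at 6 h. Vamp4, a vesicle fusion protein named after its values were seen, rose by 0.50 ± 0.08 at 3 h and differed by -0.15 at 6 h, and its 3 h call was lost with the block and the actin measure.

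Cdkn1a and Gbp7 had larger effects at 6 h (adjusted p of the difference 0.0369 and 0.00332), the former no longer called as different without HF replicate 1, HF replicate 3 or MAZ1310 replicate 3. Cdkn1a measured 4573, 4647 and 4535 with MAZ1310 and 2025, 2021 and 2103 with HF at 6 h. Gbp7 measured 571, 313 and 458 with MAZ1310 and 4235, 2910 and 4034 with HF at 6 h. Between the times the MAZ1310 level of Cdkn1a was thus higher at 6 h and that of Gbp7 lower, a change of time that was not tested. Of the amino acid response, Cth had the largest gain among the genes named, from 1.10 ± 0.20 at 3 h to 4.01 ± 0.20 at 6 h. Of 73 mitochondrial ribosomal protein genes 3 rose and 8 fell at 3 h and 38 fell at 6 h. The 3 h counts ranged widely, with 3 lower without HF replicate 1, 4 without HF replicate 2, 5 without HF replicate 3, 4 without MAZ1310 replicate 2 and 16 without MAZ1310 replicate 3, and 1 higher without HF replicate 3 and 7 without MAZ1310 replicate 2.

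**Figure D5:**
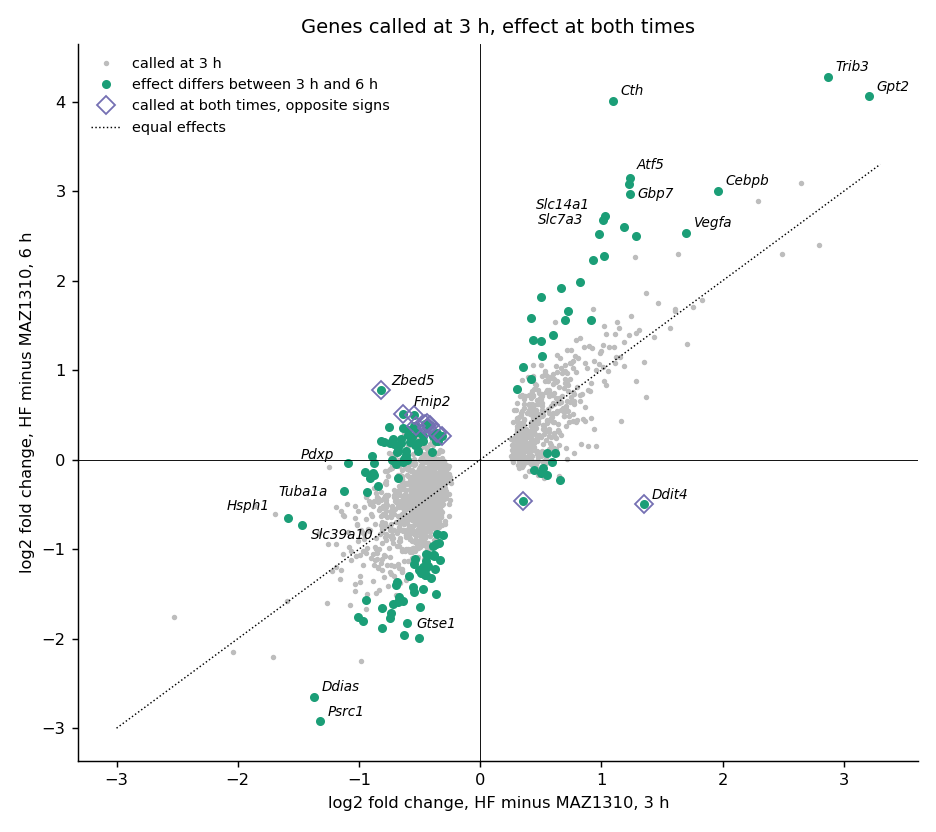
Log2 fold change of HF over MAZ1310 at 6 h (vertical axis, log2 units) against that at 3 h (horizontal axis, log2 units), 1 point for each gene called at 3 h, with genes whose effect differs between the times in green and opposite calls as diamonds. Ddit4 lies at 1.35 and -0.50, Cth at 1.10 and 4.01, and Hsph1 at -1.58 and -0.65.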

How the data were processed

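The 12 arrays were deposited by the authors as 1 table of linear intensity values of 45101 probe sets, summarised with RMA per the submitters' processing notes; its version and settings are not stated there. RMA quantile-normalizes the arrays, so a shift common to all genes would be removed. The intensities were turned into log2 values with no pseudocount (deposited values, log2 computed here). Probe sets with a single symbol numbered 34945, and the one with the highest mean over the 12 arrays stood for each of 18193 genes; other probe sets of a gene can hybridise differently. The fit was limma 3.58.1 (R 4.3.3, lmFit and eBayes) with 4 group means over all 12 arrays and 8 residual degrees of freedom, with Benjamini-Hochberg adjustment over all genes, and was tested on simulated data. The number of arrays limits the precision. Same-numbered HF and MAZ1310 arrays deviated together (correlations of 0.242 to 0.381 at 3 h and 0.287 to 0.391 at 6 h), so the numbers pair the arrays; what they share is not stated in the labels.

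The genes and lists were chosen with earlier results of these data known. Genes were named by rule: the 25 largest called changes in each direction without overlap between the groups, up to 6 called members of each list, a fixed set of pathway and T cell genes, and the genes whose effect differs most between the times. Among the rule's genes, those keeping their calls when 1 array was left out were preferred. Alternatives were other probe set rules, cyclic loess between arrays, genes above the median only, the replicate block with and without the actin 3' to 5' measure, the 6 arrays alone and leaving out arrays or replicate numbers. A block within each time, alone and with the actin measure, was chosen after seeing the data, as was a paired test of the control probe measures. Promoters and motifs are from RefSeq (GRCm38.p6); a motif match is a description, not a site.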

Additional observations from a re-analysis of the deposited data

Results flagged for a closer look

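A test of the difference between the HF effects at 6 h and 3 h called 42 of the genes named. The values are the log2 effect at 6 h minus that at 3 h; a positive value means a larger rise or a smaller fall at 6 h.

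In the amino acid response the difference was 1.91 for Atf5, 1.04 for Cebpb, 1.41 for Trib3, 0.86 for Gpt2, 1.22 for Slc6a9, 1.66 for Slc7a3 and 2.91 for Cth. It was -1.85 for Ddit4 and 1.15 for Fnip2, which turned direction. Among interferon and T cell genes it was 1.41 for Gbp6, 1.86 for Gbp7, 1.73 for Gbp8, 1.17 for Irgm2, 0.65 for Tap1, 0.79 for Tbx21 and 0.70 for Smad3.

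Chaperone decreases were smaller at 6 h, by 0.94 for Hsph1 and 0.55 for Dnajb1, while those of the ER isomerases were larger, with -0.85 for Pdia3 and -0.71 for Pdia4. The p53 genes gave -1.27 for Ddias, -1.60 for Psrc1, -0.75 for Polk, -0.84 for Ei24, -1.22 for Gtse1 and -0.62 for Cdkn1a.

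Carriers and redox genes gave 0.75 for Slc39a10, 0.83 for Slc5a6, 0.87 for Gclc, 0.94 for Txnrd1 and -0.97 for Cat. Other values were 0.84 for Vegfa, 0.96 for Car12, -1.07 for Aaas, 0.78 for Tuba1a, 1.06 for Pdxp and 1.60 for Zbed5. Slc14a1, a urea transporter whose 3 h effect was 1.03, gave 1.69, and Jade3 and Amz1, named after their values were seen, gave 1.03 and 1.12. Vamp4 gave -0.65 and Ppargc1b 0.81.

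Leaving out HF replicate 1 of 3 h ended the call of difference for Tbx21, Pdia4, Ddias, Slc39a10, Cat and Aaas. It was lost without HF replicate 1 or 3 for Dnajb1, without HF replicate 1, 2 or 3 for Polk and Txnrd1, and without HF replicate 1 or 3 or MAZ1310 replicate 3 for Cdkn1a. For Smad3 it was lost without HF replicate 1 or 3 or MAZ1310 replicate 2 or 3. For Trib3 it was kept only without MAZ1310 replicate 1, and for Irgm2 only without MAZ1310 replicate 2. The other 29 genes kept the call without each of the 6 arrays in turn, and none of the 42 changed sign in those fits. Leaving out a replicate number, which removes 4 arrays, ended the call at least once for 36 of the 42, 23 of these 29 among them, and for 18 it ended the call with each of the 3 numbers. Atf5, Slc6a9, Cth, Ddit4, Gtse1 and Zbed5 kept the call without each number.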

How the results depend on the processing

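The count of genes called at 3 h, 1726 in the fit reported, was 894 in a fit of the 6 arrays of 3 h alone and 419 with the replicate block and the actin measure. It was 2428 with the replicate block alone, where the pairing changed no call of a named gene. With the block set within each time, an alternative chosen after seeing the data, it was 143 with the actin measure. Leaving out 1 array or 1 replicate number gave 657 (without replicate number 2) to 2196 (without MAZ1310 replicate 1). The count past 2-fold ranged from 75 to 127 over all alternatives; its split was 56 higher and 68 lower without MAZ1310 replicate 1 and 55 and 72 without replicate number 1. The count of genes whose HF effect differs between the times, 328, was 680 with the block, 819 with the block and the actin measure, 859 with the block within each time and 847 with that block and the actin measure. Leaving out arrays gave 38 (without replicate number 2) to 602 (without MAZ1310 replicate 1).

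Values that changed sign were those of Eif2ak4, 0.20 for the probe set without a suffix, and of genes not called: Cd4, 0.16 with the block and the actin measure and 0.092 with the block within each time and that measure; Rora, -0.018 to 0.41 and Il17a, -0.046 to 0.51 when 1 array was left out. Of 135 named and called genes 57 kept their call under all alternatives and 113 under all but the 2 fits with the actin measure, which ended 38 calls (block over both times) and 74 calls (block within each time). Genes keeping their calls when 1 array was left out were preferred for naming. These counts are thus partly set by the choice of genes and do not hold for called genes at large. Calls were lost for 7, 12 and 8 named genes without replicate numbers 1, 2 and 3. With 3 arrays per group small differences, such as those of Il17a and Il2, could not be resolved.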
